A study of Mus musculus with 36 samples.

Results

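The comparison described here is the loss of Zrsr2 in cultured mouse bone marrow progenitors that carried a control short hairpin. It rests on 4 of the 36 libraries of the series: 2 from Zrsr2-deficient cells and 2 from wild-type cells, both of C57BL/6 background. They are every library titled as Lin-Kit+ cells with the control hairpin, 1 of each genotype from each of the experiments numbered 1 and 2. Lin-Kit+ cells are bone marrow cells that lack lineage markers and carry the receptor Kit. They were grown ex vivo and transduced with a control shRNA, polyadenylated RNA was selected, and libraries were made with a NEBNext Ultra kit. The labels give no age and do not say whether the experiments used separate mice, so p-values measure only the spread between these libraries, which may be technical. The other 8 Lin-Kit+ libraries carry hairpins against Zrsr1 in the same genotypes and serve here to estimate the spread. The 18 libraries of sorted progenitors and the 6 of embryonic fibroblasts hold the same genotypes and share no library with the comparison.

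ZRSR2 is a protein of the minor spliceosome that helps to recognise where U12-type introns end, at the 3′ splice site. Such introns are a small class that is removed by this separate machinery, and they are recognised by a conserved 5′ site and a conserved branch point rather than by the looser signals of the major class. Acquired mutations of ZRSR2 occur in myelodysplastic syndromes, and Zrsr1 is its close relative in the mouse. Retention, the measure used throughout, is the percent of reads crossing an exon-intron boundary, out of those reads and 2 times the spliced ones of the same intron.

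The sequences that follow are those of U12-type introns described in the results, with the 8 bases of the 5′ site and the best match to the branch point motif in capitals. They were read 5′ to 3′ from GENCODE M21 transcripts in which another exon covers the intron (mm10), and the intron class was called from them. The motifs searched on the transcribed strand were ATATCCTT or GTATCCTT at the 5′ end with at most 1 mismatch, and TTCCTTAA with at most 2 mismatches in the last 40 bases. Of 10101 introns whose ends could be read in this way, 63 (0.624%) were U12-type. Intron 13 of Vps16 is given whole because it is short and had the second smallest p of the class.
Vps16 intron 13, chr2:130440580-130440706, plus strand: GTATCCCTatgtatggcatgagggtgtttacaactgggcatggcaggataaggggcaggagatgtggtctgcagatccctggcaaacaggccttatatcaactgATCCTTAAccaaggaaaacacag
For 4 longer introns the last 40 bases are shown. In the control-hairpin libraries, retention without Zrsr2 was higher for 2 of them (Msh3, Pcyt2) and lower for 2 (D10Jhu81e, Fam92a).
Msh3 intron 6, chr13:92345102-92346732, minus strand: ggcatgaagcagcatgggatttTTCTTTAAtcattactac
Pcyt2 intron 8, chr11:120612084-120612462, minus strand: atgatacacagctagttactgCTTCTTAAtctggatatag
D10Jhu81e intron 6, chr10:78162719-78163396, minus strand: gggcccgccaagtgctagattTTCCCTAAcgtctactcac
Fam92a intron 4, chr4:12165772-12168222, minus strand: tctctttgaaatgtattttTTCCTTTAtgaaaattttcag
The branch point match had 2 mismatches in Pcyt2 and 1 in Vps16, Msh3, D10Jhu81e and Fam92a. The exact motif was found in the last 40 bases of 0.178% of all introns whose ends were read and in 9.52% of the U12-type ones. A match describes the letters and does not show that the site is used.

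Depth was 30481450 and 37529287 spliced counts in the Zrsr2-deficient libraries of experiments 1 and 2, and 43345548 and 41957110 in wild type. Exon-intron reads, on which retention rests, numbered 1336774 and 1247328 against 1923401 and 1438269. Counting introns that had 20 or more exon-intron reads, those with none at 1 of the ends made up 10.9% and 9.6% in experiment 1 but 26.9% and 24.6% in experiment 2, so reads in experiment 2 were more unevenly placed. The wild-type library of experiment 2 stood apart by kidney transcripts. The summed level of the kidney marker list was 2310 CPM (spliced counts scaled to a common library total) there and 629 to 1210 CPM in the other 11 Lin-Kit+ libraries, and 74 list members reached 1 CPM against 7 to 18. Kap, an androgen-regulated protein of the kidney tubule, was at 342 CPM there and at 0, 0.169 and 0 in the other 3 libraries of the comparison. These transcripts were treated as contamination: a gene counted as kidney-type if it was in the list or at least 8 times the highest of the other 11 libraries, and no such gene is reported as a result. Of 144 genes that met the 8-fold rule, 41 were in the list, so the label does not show that a gene is a kidney gene. Markers of the labelled cells were present, with Kit at 156 and 422 CPM in Zrsr2-deficient and 156 and 457 CPM in wild-type cells of experiments 1 and 2. The mast cell protease Cpa3 was at 4160 and 7690 against 4040 and 7060 CPM, and the neutrophil granule enzyme Mpo at 2880 and 1970 against 2880 and 2200 CPM. Markers of mature cells were high too. Mean levels without Zrsr2 were 7210 CPM for Lyz2 of macrophages, 1100 for Lcn2 of neutrophils and 659 for Fcer1a of mast cells and basophils. In sorted common myeloid progenitors without Zrsr2, scaled in another fit, they were 89.4, 10.4 and 0.402 CPM. The eosinophil marker Siglecf went the other way, at 16.5 against 27.5 CPM. Later comparisons with sorted progenitors were not adjusted for this.

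Zrsr2 itself was nearly absent from the Zrsr2-deficient libraries. Summed over its introns, spliced counts were 3 and 57 in the knockout and 1045 and 1085 in wild type, or 0.0892 and 1.61 CPM against 21.5 and 25.2 CPM. Both knockout libraries lay below both wild-type libraries. Across 9 of its 10 introns (chrX:163935443-163958661 for the gene), the knockout library of experiment 1 had 0 or 1 spliced read per intron and that of experiment 2 had 6 or 7, while wild-type libraries had 48 to 242. The fitted change was -4.85 on the log2 scale (SE 0.94), with an unadjusted p of 4.78e-04 and an adjusted p of 1 by edgeR's quasi-likelihood test over all genes. DESeq2 gave an adjusted p of 0.0519. So the targeted gene did not pass the threshold of 0.05 in a comparison of 2 libraries a side, and a gene that misses it here is not shown to be unchanged.

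**Figure D1:**
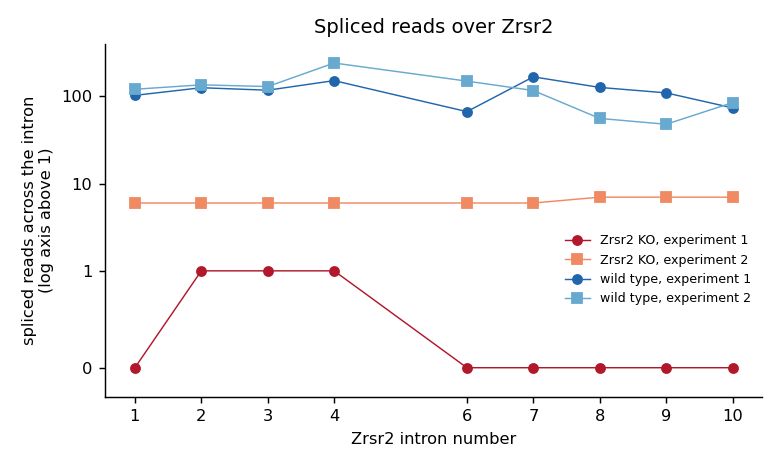
Spliced reads across each listed intron of Zrsr2 (vertical axis, logarithmic above 1, with 0 shown) by intron number, for the 4 libraries. Wild-type libraries (blue) sit between 48 and 242 reads, the knockout library of experiment 2 (orange) at 6 or 7 and that of experiment 1 (red) at 0 or 1.

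Intron 3 of Pola2 was the only intron that passed the test, and its retention rose in the knockout. Pola2 encodes the regulatory subunit of DNA polymerase alpha, which starts DNA synthesis together with primase. The intron, the third of 17, was retained at 39.6% and 9.39% in the Zrsr2-deficient libraries of experiments 1 and 2 and at 4.28% and 0.437% in wild type. These percents came from 182, 40, 27 and 2 exon-intron reads and 139, 193, 302 and 228 spliced reads, in the same order. The genotypes did not overlap, and the knockout was higher in each experiment, although the experiments themselves differed widely within a genotype. Mean retention was 24.5% ± 21.3 against 2.36% ± 2.72 (SD, n = 2 each). The change of the log2 ratio of exon-intron to spliced reads was 4.05 (SE 0.97), with differences of 3.85 and 4.26 in the 2 experiments. The adjusted p was 0.00554 by edgeR's diffSpliceDGE over 44467 introns, a test that made more false calls than its threshold allows on simulated data, whereas the edgeR model with a coefficient per library did not and gave an adjusted p of 1. Both ends of the intron contributed reads in the knockout, 117 and 65 in experiment 1 and 20 and 20 in experiment 2, against 12 and 15, and 0 and 2, in wild type.

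The call depended on single libraries and on the test. With diffSpliceDGE the adjusted p became 0.739 without the Zrsr2-deficient library of experiment 1 and 0.997 without the wild-type library of experiment 2, and 1 without the experiment as a block or with an edgeR model that has a coefficient per library. The change stayed between 3.05 and 5.06 on the log2 scale when each library was left out in turn. No other intron of Pola2 showed this. In the remaining rows of Pola2, retention in the Zrsr2-deficient libraries reached at most 8.41% in experiment 1 and 4.98% in experiment 2, and wild type reached 10.2% and 8.02%. Intron 13, for instance, was at 8.41% and 1.03% against 10.2% and 2.13%. The spliced level of Pola2 was 136 and 85 CPM in the knockout and 126 and 78.3 CPM in wild type. That is a change of 0.12 (SE 0.13) with an unadjusted edgeR p of 0.375.

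**Figure D2:**
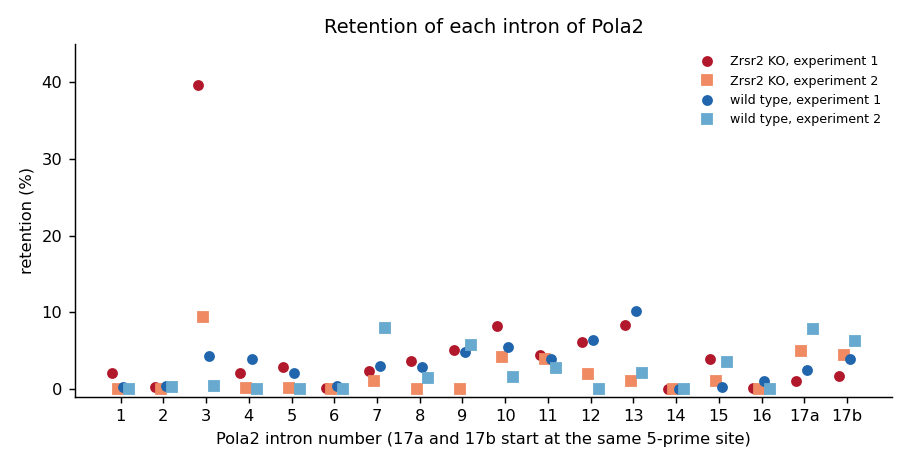
Retention in percent (vertical axis) of each listed intron of Pola2 (horizontal axis, by number from the 5′ end) in the 4 libraries. At intron 3 the knockout libraries (red and orange) stand at 39.6% and 9.39% against 4.28% and 0.437% in wild type (blue), and at no other intron does a library exceed 10.2%.

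The same intron was higher without Zrsr2 in freshly sorted progenitors, which share no library with the cultured cells. Mean retention in common myeloid progenitors (CMP) was 13.5% against 3.04%, in granulocyte-monocyte progenitors (GMP) 18.8% against 2.07% and in megakaryocyte-erythroid progenitors (MEP) 9.46% against 1.17% (3 libraries each). It rose in each of them, by 2.20, 3.46 and 3.44 on the log2 scale, with adjusted p of 0.00754, 3.89e-06 and 2.75e-05 by diffSpliceDGE. These p-values may be too small, but the simulated data did not cover the fit of the progenitors. In embryonic fibroblasts it was 14.8% against 6.94%, a log2 change of 1.13 with an adjusted p of 0.999 (diffSpliceDGE). In Lin-Kit+ cells with hairpins against Zrsr1, Pola2 intron 3 was retained at 27.5% to 67.7% in 4 knockout libraries and at 1.99% to 5.42% in 4 wild-type libraries. The difference between the knockout effect with the control hairpin and with the Zrsr1 hairpins was -0.57 on the log2 scale, with an adjusted p of 0.985 (diffSpliceDGE).

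Among the other U12-type introns, 5 had an unadjusted p under 0.05 with higher retention, none had one with lower retention, and none passed adjustment (adjusted p 0.991 each, diffSpliceDGE). Over all introns tested these shares were 1.18% higher and 1.69% lower, and of 6096 other classed introns 71 were higher and 99 lower. In all, 54 of the 63 U12-type introns had enough reads to be tested. Vps16 belongs to the complexes that tether vesicles to lysosomes. Its intron 13 was retained at 31.9% and 20.5% in the knockout and 11.9% and 11.3% in wild type, a log2 change of 1.40 (SE 0.70) with a p of 0.0192 by diffSpliceDGE. The genotypes did not overlap, but the margin between them was smaller than the gap between the knockout libraries. Msh3 is a mismatch repair protein, and its intron 6 was retained at 33.3% and 52.5% against 10.7% and 0%. The reads behind this were 31, 42, 11 and 0, so the library at 0, wild type of experiment 2, had only 28 spliced reads. Both knockout libraries were nevertheless above both wild-type libraries.

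Pcyt2 makes an intermediate of phosphatidylethanolamine and had the best covered of these introns. Intron 8 was retained at 61.6% and 74.9% against 53.2% and 55.8%, on 361 to 580 exon-intron reads per library, so wild-type cells also kept it in most transcripts. Its change was 0.87 (SE 0.71), with a p of 0.0463 by diffSpliceDGE. It was 0.41 without the Zrsr2-deficient library of experiment 2 and 1.32 without that of experiment 1. Sart3, a factor that recycles spliceosomal RNAs, differed mostly in experiment 2. Its intron 16 was at 6.61% and 39.4% against 5.90% and 0.225%, and the log2 differences were 0.18 and 7.59. Cyp4f16, a cytochrome P450, had intron 3 at 7.24% and 10.6% against 2.89% and 1.36%, on 4 to 23 exon-intron reads. The genotypes did not overlap in either gene.

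Of the 12 U12-type introns with the smallest p, 10 were higher without Zrsr2 and 2 were lower. Ciao2b, which serves the assembly of cytosolic iron-sulfur proteins, had intron 1 at 20.7% in both knockout libraries against 15.3% and 9.4%. Lmbr1l, a membrane receptor, had intron 13 at 18.7% and 26.4% against 15.9% and 6.06%, and its direction turned to a log2 change of -1.16 when only the end with fewer reads was used. Lsm5, a protein that binds U6 RNA, had intron 2 at 4.53% and 7.36% against 2.74% and 2.03%. Hsbp1, which binds heat shock factor, had intron 2 at 2.50% and 2.47% against 1.47% and 1.37%. In each of these the knockout libraries lay above both wild-type libraries. The reverse held for Fam92a, which encodes a membrane-shaping protein, with intron 4 at 0.984% and 1.23% against 2.44% and 9.68%. These percents came from 3, 5, 8 and 21 exon-intron reads, which in each library all lay at 1 end. D10Jhu81e intron 6 was likewise lower, at 1.57% and 0% against 2.41% and 3.42%. These introns were picked by their p in this comparison, so their separation is a description.

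**Figure D3:**
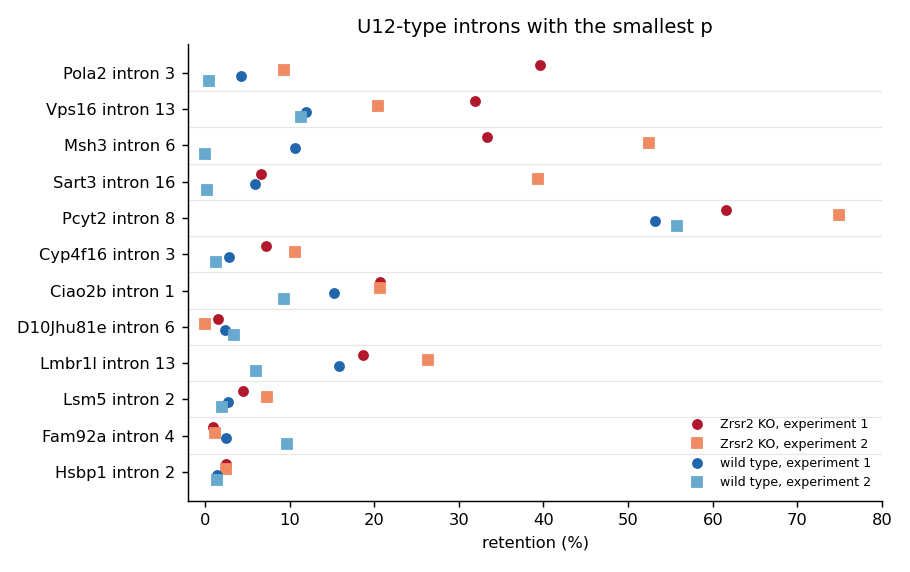
Retention in percent (horizontal axis) of the 12 U12-type introns with the smallest p, 1 row per intron, in the 4 libraries. Knockout libraries (red and orange) lie to the right of both wild-type libraries (blue) in every row except D10Jhu81e intron 6 and Fam92a intron 4, where they lie to the left.

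None of the genes that hold these introns was called in the test of spliced levels. Fam92a was at 38.2 and 47.2 CPM against 28.8 and 24.7 CPM, a log2 change of 0.69 (SE 0.18). Lmbr1l was at 64 and 36.9 against 43 and 23.5 CPM, a change of 0.60 (SE 0.24). The edgeR adjusted p was 1 for both, with unadjusted p of 0.00298 and 0.0335. For the hosts of the other 10 introns the change lay between -0.23 for Ciao2b and 0.29 for Pcyt2. Over the 59 measured hosts of a U12-type intron, 33 were higher and 26 lower, with a median change of 0.03. For all genes the median was 0.00.

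As a class, U12-type introns had a higher mean retention without Zrsr2 in both experiments, but their median difference was above 0 in experiment 1 only. Mean retention over the 54 introns was 14.3% and 12% in the Zrsr2-deficient libraries and 10.8% and 9.94% in wild type. Over 6096 other introns classed in the same way it was 10.8% and 8.78% against 10.5% and 8.79%. For all 44467 introns tested it was 6.71% and 5.79% against 6.60% and 5.77%. Introns that could be classed were therefore more retained on average than all tested. Most introns could not be classed, and these may include further U12-type introns. Thus the U12-type mean was higher without Zrsr2 in both experiments, 13.2% ± 1.62 against 10.4% ± 0.591 (SD, n = 2), while the mean of the other introns differed by less than its spread, 9.79% ± 1.44 against 9.64% ± 1.21. In experiment 2 the U12-type gap rested largely on Msh3 intron 6, at 52.5% against 0%, and Sart3 intron 16, at 39.4% against 0.225%. The largest difference the other way was Tepsin intron 2, at 35.6% against 75%. With 2 libraries a side the smallest p of an exact two-sided test is 0.333, so no test is given for the class.

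Single introns followed that mean in experiment 1 and not in experiment 2. In experiment 1, 38 of 54 U12-type introns (70.4%) were higher in the knockout, beside 51.6% of the other introns. In experiment 2, 25 of 54 (46.3%) were higher, beside 49.1%. The median difference of the log2 ratio was 0.40 and -0.19 for the U12-type and 0.02 and -0.02 for the other introns. Both experiments gave higher retention in 20 U12-type introns (37%), beside 25.5% of the other introns and 24.4% of all tested, and lower retention in 11 (20.4%), beside 24.8% and 26.2%. Knockout libraries lay wholly above wild type in 13 (24.1%), beside 11.7% and 11.1%, and wholly below in 4 (7.41%), beside 12.1% and 13.7%. In experiment 2, 5 knockout and 4 wild-type values of the 54 rested on no exon-intron read, and in experiment 1 none did. A wider class, 93 tested introns with an exact U12 5′ site whose 3′ end was not used, had median differences of 0.29 and 0.18, beside 0.01 and -0.04 for 10305 others. It was defined after the data were seen.

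**Figure D4:**
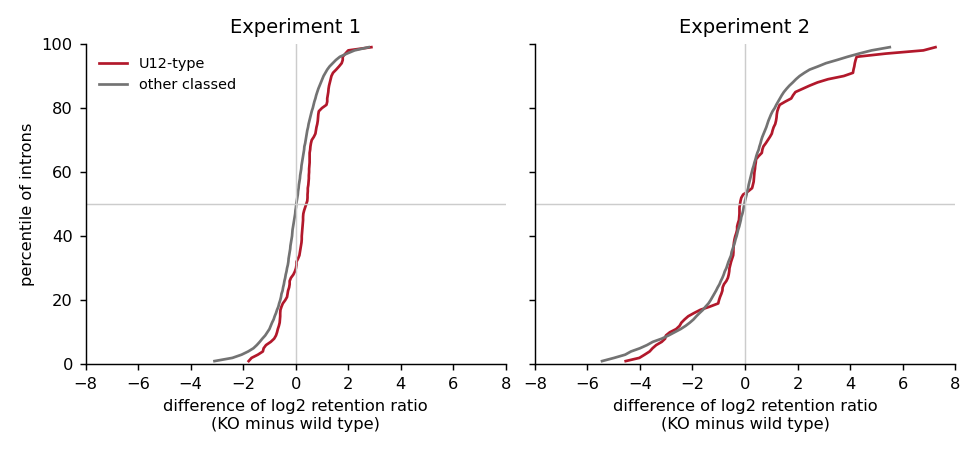
Cumulative distribution (vertical axis, percentile of introns) of the difference in log2 ratio of exon-intron to spliced reads, knockout minus wild type (horizontal axis), for 54 U12-type (red) and 6096 other classed introns (grey) in each experiment. The red curve lies to the right in experiment 1, with medians of 0.40 and 0.02, and crosses the grey curve in experiment 2, with medians of -0.19 and -0.02.

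In sorted progenitors the same U12-type introns had a median change of 0.42 in CMP and 0.31 in both GMP and MEP, beside 0.08, -0.12 and 0.01 for the other introns. In fibroblasts the medians were 0.05 and -0.04. Of the 53 introns tested in both, 24 were higher in the cultured cells and in MEP, 23 in CMP and 22 in GMP, while 8, 8 and 9 were lower in both. A further 16, 16 and 15 were higher in the progenitors only, and 5, 6 and 7 in the cultured cells only. The direction was thus the same for 60.4%, 58.5% and 58.5% of them, against 49.6%, 50% and 51.1% of the other classed introns. However, 75.5%, 73.6% and 69.8% of the U12-type introns were higher in MEP, CMP and GMP, beside 50.9%, 58.3% and 35.8% of the others. These unlike leanings also move the shares, which therefore do not measure agreement of single introns. With fibroblasts it was the same for 48.9% of 45 U12-type introns and 51.2% of the others.

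The introns called in progenitors were picked by their p there, but they were added here after their values in the cultured cells were seen. By diffSpliceDGE, 4 introns were called in CMP (0.00659% of those tested), 5 in GMP (0.00824%) and 3 in MEP (0.00494%), 8 different introns in all. In the Lin-Kit+ control cells 7 of these 8 had a positive change, beside 47.7% of all introns tested. An unadjusted p under 0.05 with higher retention was found in 4, beside 1.18% of all introns tested (diffSpliceDGE). Pola2 intron 3 and Msh3 intron 6, described above, are among them. Tnpo2 encodes a nuclear import receptor, and its intron 2 (chr8:85038490-85040461) was retained at 11.4% and 5.02% against 2.66% and 0%, a change of 3.61 with a p of 0.00927. Taf2 is a subunit of the transcription factor TFIID, and its intron 12 (chr15:55048742-55049394) was at 24.2% and 34.1% against 11.6% and 0%, a change of 3.73 with a p of 0.0158. Both had an adjusted p of 0.991 (diffSpliceDGE), and in both the knockout libraries were above wild type. Neither could be classed because their ends could not be read.

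The other 4 were less clear. Mcts1 intron 4, in a gene for a translation re-initiation factor, was at 33.1% and 22.5% against 15.7% and 21.6%, on 136 to 276 exon-intron reads. The knockout stood apart from wild type in experiment 1 but by 0.08 of log2 ratio in experiment 2. Vps25 intron 2, in a gene of the ESCRT sorting machinery, was at 6.74% and 3.36% against 1.18% and 4.81%. Psma1 intron 6, in a gene of the proteasome, was at 0.507% and 0.458% against 0.514% and 0.0301%. Ap1m1 intron 2, in a gene of a clathrin adaptor, was at 8.35% and 0.333% against 3.89% and 0.998%, a change of -0.14. In the last 3 the genotypes overlapped.

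Over all introns, 1 of 44467 was called higher (0.00225%) and 0 lower by diffSpliceDGE. At an unadjusted p under 0.05 there were 526 higher (1.18%) and 753 lower (1.69%), and limma and the edgeR model with a coefficient per library called 0 in either direction. So no other intron of either class is given as changed.

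Expression of genes hardly separated the genotypes. Of 17593 genes tested with edgeR, 0 were called higher and 1 lower (0.00568%). The 1 gene was Kap, so no gene other than a kidney-type one was called. At an unadjusted p under 0.05 there were 174 higher (0.989%) and 309 lower (1.76%), and 44 of those 309 were kidney-type. Both knockout libraries lay above both wild-type libraries in 1331 genes (7.57%) and below in 1747 (9.93%). DESeq2 called 11 higher and 21 lower, of which 10 were kidney-type, and limma-voom called 0. Those 10 include the antibody genes Ighg1, Ighg3 and Ighd, which met the 8-fold rule and are not in the kidney list. Without the wild-type library of experiment 1, edgeR called 13 lower, 10 of them kidney-type. Without that of experiment 2, which holds the kidney transcripts, it called 0. In bulk RNA, fewer cells of a type and less RNA per cell cannot be told apart.

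**Figure D5:**
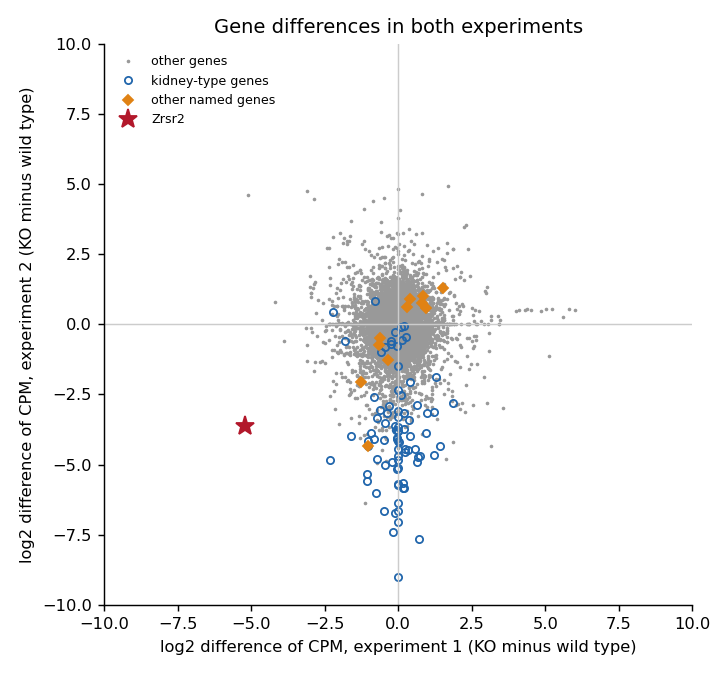
Log2 difference of CPM (0.5 added), knockout minus wild type, in experiment 1 (horizontal axis) and experiment 2 (vertical axis), 1 point per gene tested. Zrsr2 (star) is low in both at -5.23 and -3.61, and kidney-type genes (blue circles) are mostly low in experiment 2 alone. The other named genes (orange) lie on the same side in both because they were chosen for libraries that do not overlap.

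The genes with the smallest p whose libraries did not overlap are described here by their values, since all had an edgeR adjusted p of 1. Spag1, an assembly factor of ciliary dynein, was at 9.82 and 6.94 CPM in the Zrsr2-deficient libraries of experiments 1 and 2 and at 3.07 and 2.53 CPM in wild type. Both knockout values were over 2 times those of wild type, with a change of 1.56 (SE 0.41) and an unadjusted p of 0.00357. Spag1 was also higher in the sorted cells without Zrsr2. Its edgeR adjusted p was 0.00449 in GMP (7.67 ± 1.88 against 2.50 ± 0.187 CPM, SD, n = 3) and 0.0281 in MEP (8.39 ± 0.913 against 3.53 ± 0.0593 CPM). In CMP it was at 8.15 ± 1.62 against 3.47 ± 0.333 CPM, a log2 difference of 1.23 with an edgeR adjusted p of 0.0503. In fibroblasts it was at 8.87 ± 1.35 against 4.72 ± 0.182 CPM, a difference of 0.91 with an adjusted p of 1 and an unadjusted p of 9.23e-04 in edgeR's model.

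Fpr1, a receptor for bacterial formyl peptides, was at 7.76 and 14.2 against 4.14 and 6.69 CPM, a change of 1.0 (SE 0.18). Gstp2, a glutathione transferase, was at 126 and 81.5 against 65.3 and 54.2 CPM, a change of 0.76 (SE 0.15). DESeq2 called both, with adjusted p of 0.0142 and 0.00513. Bcl9l, a cofactor of beta-catenin, was at 14 and 15 against 7.92 and 8.62 CPM, and its values within a genotype were close. Naip5, a sensor of bacterial flagellin, was at 81.7 and 103 against 65.9 and 67.4 CPM. Reads of Gstp2 and Naip5 may be shared with near-identical neighbours, so their levels are uncertain.

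On the lower side, Tns2, a protein of cell adhesions, was at 5.44 and 1.97 against 13.7 and 9.88 CPM, a change of -1.77 (SE 0.37), and DESeq2 called it with an adjusted p of 0.0159. Abca13, a lipid transporter, was at 24.2 and 18.3 against 37.9 and 30.7 CPM, a change of -0.70 (SE 0.15). Srp54a, a subunit of the signal recognition particle with close copies beside it, was at 135 and 101 against 208 and 140 CPM. Cryzl2 was at 7.26 and 6.32 against 9.36 and 16 CPM. Ighg2b, an antibody heavy chain segment, was at 0 and 0 against 0.515 and 9.57 CPM, so its difference rested on the wild-type library with kidney transcripts. In each of these genes the knockout libraries lay below both wild-type libraries, by margins that for Abca13, Srp54a, Cryzl2 and Ighg2b were smaller than the gap between the wild-type libraries. None of the genes in this or the previous paragraph was called in sorted progenitors, where Fpr1 was not tested. Log2 changes in CMP, GMP and MEP were 0.24, 0.10 and -0.02 for Gstp2 and -0.10, -0.09 and 0.00 for Naip5. For Tns2 they were -1.27, 0.43 and -1.29, and for Srp54a -0.71, 0.00 and -0.41.

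Of the genes called in the sorted progenitors, Sec14l1 and F10 were at close levels in both genotypes of the cultured cells. edgeR called 3 genes in CMP (0.0173%), 3 in GMP (0.0173%) and 8 in MEP (0.0461%), 9 in all, Zrsr2 and Spag1 among them. Sec14l1, a lipid transfer protein gene that changed in all 3 progenitor types, was at 71.8 and 93.6 CPM in the Zrsr2-deficient Lin-Kit+ libraries and 68.1 and 90.2 CPM in wild type. Its change was 0.06 (SE 0.11). Pcyt2 was at 146 and 128 against 116 and 108 CPM, a change of 0.29 (SE 0.14) with an unadjusted edgeR p of 0.068. For the coagulation factor F10 the change was 0.02 (SE 0.15) and for the nuclear envelope protein Syne2, at 21.3 and 20.2 against 31.8 and 21.3 CPM, it was -0.31 (SE 0.31). Irf5, a transcription factor of interferon responses, was at 58.5 and 98.4 against 45 and 88.2 CPM, a difference of 0.27 (SE 0.18), and higher in each experiment. The retinol dehydrogenase gene Rdh12 was at 5.29 and 7.19 against 6.16 and 3.49 CPM, with a difference of 0.41 (SE 0.36). Tlr7, a sensor of RNA, was at 14 and 9.37 against 12 and 18.8 CPM, with a difference of -0.26 (SE 0.45). In progenitors Sec14l1 was lower without Zrsr2, by -0.80, -0.79 and -0.82 in CMP, GMP and MEP, and Pcyt2 was higher by 0.44 in CMP. F10, Syne2, Irf5, Rdh12 and Tlr7 were called in MEP and were higher there, by 3.05, 3.95, 2.15, 2.76 and 7.24. Their mean levels in MEP were low, at most 2.71 CPM, that of Syne2 without Zrsr2. Syne2 and Tlr7 thus had the other sign in the cultured cells.

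Gene lists were read by counts and medians beside those of all genes, of which 8840 were higher and 8753 lower. Members of a list share the same 4 libraries, so their counts are no replicates. In the minor spliceosome list, 11 of 13 measured proteins were higher and 2 lower, with a median of 0.11. None was called. Snrnp25, a protein of the U11/U12 particle, was at 29.3 and 28.8 against 27.7 and 16.1 CPM, a change of 0.45 (SE 0.20). Rnpc3, which bridges U11 and U12, was at 22.3 and 27.9 against 23.7 and 26 CPM. The list had 6 members higher in both experiments (23.9% of all genes were), and its median was -0.03 in experiment 1 and 0.32 in experiment 2. The lists of major 3′ splice site factors, SR proteins and decay factors had medians of 0.02, 0.06 and 0.08 and no member with an unadjusted p under 0.05. The decay factor median became -0.01 without the wild-type library of experiment 2.

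Interferon-stimulated genes were higher in the knockout in all 30 measured members, and 23 were higher in both experiments. The median was 0.20, with 0.15 in experiment 1 and 0.21 in experiment 2. No member had an unadjusted p under 0.05. The list's summed level was 4000 and 10600 CPM in the knockout and 3630 and 8500 CPM in wild type, so the experiments differed far more than the genotypes and no member's libraries were separated. Irf7, a transcription factor of the interferon response, was at 455 and 1600 against 373 and 1220 CPM. Bst2, which tethers budding virus, was at 518 and 1030 against 456 and 654 CPM. The same list had medians of -0.02, -0.02, -0.10 and 0.06 in CMP, GMP, MEP and fibroblasts. Without the wild-type library of experiment 2 the median in the cultured cells was 0.21.

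Cytosolic ribosomal proteins were also higher in all 36 measured members, 29 of them in both experiments. Their median was 0.16, made up of 0.02 in experiment 1 and 0.29 in experiment 2, so the list's difference lay almost wholly in experiment 2. It was 0.18 in the fit without the wild-type library of that experiment. Rps14 was at 825 and 1090 against 777 and 760 CPM. Subunits of oxidative phosphorylation were higher in 27 of 34, with a median of 0.11. DNA replication genes were lower in 19 of 28, 18 of them in both experiments (24.5% of all genes were), with a median of -0.06. Mitosis genes were lower in 17 of 24, with a median of -0.05. Of these, Mki67, a marker of cycling cells, was at 147 and 62.7 against 189 and 85.4 CPM, a change of -0.41 (SE 0.14), and Cenpe, a kinetochore motor, at 111 and 55.3 against 133 and 82 CPM. Without the wild-type library of experiment 2 the medians were 0.07 for oxidative phosphorylation, -0.03 for DNA replication and 0.01 for mitosis, whose sign turned. Mki67 and Cenpe had an edgeR adjusted p of 1. For both genes each experiment gave a lower knockout value, while the wild-type library of experiment 2 was below the knockout of experiment 1.

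Mature neutrophil markers differed between experiments more than between genotypes. They had a median of -0.31 in experiment 1 and 0.54 in experiment 2, and their summed level was 5050 and 12100 CPM in the knockout against 6260 and 7550 CPM in wild type. Lcn2, a neutrophil granule protein, was at 700 and 1500 against 778 and 841 CPM. Monocyte and macrophage markers were higher in 12 of 15, with medians of 0.39 and -0.02. Lyz2, their lysozyme, was at 6850 and 7580 against 5930 and 5940 CPM, and here the genotypes did not overlap. Mast cell, basophil and eosinophil markers were higher in 16 of 19, with a median of 0.12, and megakaryocyte markers in 13 of 17, with a median of 0.13. Erythroid markers were lower in 12 of 20, with a median of -0.07. Granulocyte-monocyte progenitor markers were higher in 8 of 14 and lower in 6, with a median of 0.04. Their summed level was 10500 and 11900 against 9450 and 9910 CPM, so the genotypes did not overlap in the sum. Most of the difference in the sum came from Ly6c2. Ly6c2, a surface protein of monocytes, was at 2970 and 4660 against 2030 and 2790 CPM, a change of 0.64 (SE 0.21) with an unadjusted edgeR p of 0.0128. Lymphoid markers summed to 54.6 and 87.7 against 61.9 and 72.1 CPM. No lineage list had a called member. Without the wild-type library that holds kidney transcripts, the medians became -0.09 for neutrophil, 0.42 for monocyte, 0.35 for mast cell and for megakaryocyte and 0.12 for erythroid markers, so the neutrophil and erythroid medians changed sign. The part of the kidney transcripts in these values was not tested.

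The effect of Zrsr2 loss with the control hairpin was set against the effect with hairpins to Zrsr1 in 1 interaction contrast. No gene and no intron passed (0 of 17593 by edgeR and 0 of 44467 by diffSpliceDGE). Without adjustment, 529 genes (3.01%) and 1615 introns (3.63%) had a p under 0.05. So nothing described above is shown to be particular to cells with the control hairpin.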

How the data were processed

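Each library came as a table of the same 219945 introns. Per the file headers, the deposited columns are a count of reads at either end of each intron and a count of reads spliced across it, all whole numbers. Beside these the authors gave the covered fraction of the intron and a percent retention value (named in the headers), which equals the definition in the text in every intron. Coordinates are those of mm10, the build in the submitters' processing notes. Aligner, counter and strand setting were not given in the sources used here, so overlapping and antisense genes and near-identical copies cannot be told apart. All introns matched GENCODE M21. A read that crosses several introns is counted at each, so summed counts are not numbers of reads, and no counting intervals were used for them. A gene that has no intron in the tables has no value.

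Spliced counts were summed per gene and tested with edgeR 4.0.16 in R 4.3.3 (quasi-likelihood, TMM, filterByExpr, Benjamini-Hochberg adjustment, threshold 0.05) in 1 fit of the 12 Lin-Kit+ libraries, with 6 groups and the experiment as a block. CPM values are scaled by TMM. In diffSpliceDGE the 2 features of an intron were its exon-intron and its spliced counts; sizes and SE are from limma 3.58.1 on log2 ratios with 0.5 added. The labels number the experiments and say that they were done in duplicate; deviations of libraries of the same experiment from their group means correlated at 0.32 to 0.419 over 30 pairs. Progenitors and fibroblasts had their own fits without a block. DESeq2 1.42.0 and limma-voom were alternatives. The scripts were tested on simulated data, in which diffSpliceDGE made a larger share of false calls than its threshold allows, limma on log2 ratios a slightly larger one, and the gene test and the edgeR model with a coefficient per library did not. For introns the simulated libraries had equal depth and no difference between experiments, and the fits of progenitors and fibroblasts were not simulated. Adjusted p-values from diffSpliceDGE may therefore be too small, by an amount not measured in these data.

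Named were Zrsr2, up to 6 genes per direction by smallest p with separate libraries and a mean of at least 5 CPM (kidney-type and predicted genes left out), up to 4 members of a list by smallest p, and up to 12 U12-type introns by smallest p with at least 20 reads in each library. Genes used as markers of the cells, Rnpc3 and genes and introns called in progenitors were added after their values were seen. The comparison, the lists and the kidney rule were chosen with earlier results of these data known. U12-type introns were classed only where a transcript's exon covers both ends. The sequence of 1 intron is not reported here. Alternatives were other normalization, filters, tools, samples, summing over introns, read definitions and class rules, and leaving out each library.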

Additional observations from a re-analysis of the deposited data

How the results depend on the processing

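Genes called lower numbered 1 in the reported fit and 0 without the replicate block (156 genes of either direction at an unadjusted p under 0.05), with the 4 control-hairpin libraries alone (623), with limma-voom (578), with the median intron count per gene (347) and with kidney-type genes taken out (448). DESeq2 gave 21 lower and 11 higher (697). Leaving out each library in turn gave 0 to 13 lower and 0 to 0 higher in edgeR. The 13 came without the wild-type library of experiment 1, and 3 came without the Zrsr2-deficient library of experiment 1. The cause was not tested. Introns called higher numbered 1 and became 0 without the replicate block (587 introns at an unadjusted p under 0.05), with the 4 libraries alone (607), with a coefficient per library in edgeR (626), with limma on log2 ratios (1417) and with 2 times the smaller end (1066). Leaving out each library gave 0 to 2, with 2 called without the wild-type library of experiment 1. Pola2 intron 3 lost its call in 7 of 11 alternatives. Its log2 change was 4.05 in the first 4 of these settings and 5.05 with the smaller end, with adjusted p of 1, 0.982, 1, 1 and 0.895, and 3.05 to 5.06 when a library was left out. Over all its alternatives the adjusted p ran from 8.33e-04 to 1. Zrsr2 stayed between -8.05 and -3.80 when a library was left out. The median log2 ratio difference of U12-type introns exceeded that of other classed introns by 0.09, by 0.37 in experiment 1 alone and by -0.17 in experiment 2 alone, and by 0.24 with the exact 5′ site class added after the data were seen. The intron 13 of Lmbr1l reversed to -1.16 with the smaller end. Fpr1, Gstp2, Tns2 and Ighg2b passed the threshold with DESeq2. When a library was left out, Sart3 intron 16 ran from 1.28 to 6.49 and Cryzl2 from -1.27 to -0.43. Retention values rest on few reads at the ends of many introns.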

Other observations

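Genes of the class I histocompatibility cluster, chosen here after their values were seen, moved with single libraries. H2-Q1, a non-classical class I gene, was at 2320 and 5750 CPM in the Zrsr2-deficient libraries of experiments 1 and 2 and at 41.1 and 3910 CPM in wild type. H2-Q2 was at 1760 and 4400 against 53.4 and 2990 CPM. The wild-type library of experiment 1 was the low one for both, and in the 8 libraries with Zrsr1 hairpins H2-Q1 ranged from 679 CPM in a knockout library of experiment 1 to 9460 CPM in one of experiment 2. The edgeR adjusted p was 1 for both genes, and reads of these near-identical copies are uncertain.

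Mid1, a ubiquitin ligase of microtubules, was high in 1 library of the comparison. It was at 0.714 and 24.8 CPM in the Zrsr2-deficient cells and at 0.186 and 0.511 CPM in wild type, with an edgeR adjusted p of 1. In experiment 2 the knockout libraries with Zrsr1 hairpins were at 12.9 and 13.7 CPM and the wild-type ones at 1.23 and 0.457 CPM, while the 6 libraries of experiment 1 had at most 0.714 CPM. The serpin gene Serpinb1c was at 81.7 and 701 against 7.01 and 627 CPM, and Nos2, the inducible nitric oxide synthase, at 4.79 and 20.9 against 95.2 and 11.9 CPM. The genotypes overlapped for both genes.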
